A study of Mus musculus with 2 samples.

Results

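The imprinted genes described here are a list of 48, chosen as genes known in the mouse to be expressed mainly from the maternal or the paternal copy, together with neighbours in the same domains. All 48 symbols were found in GENCODE vM21, among 55413 annotated genes on the chromosomes 1 to 19, X and Y, and they fall into 20 imprinted clusters. Their accessibility was measured by DNase-seq: DNase I cuts chromatin where no nucleosome covers it, and sequencing the cut ends maps the open sites. Frontal cortex came from male mice of the strain B6CASTF1/J, a first-generation cross of C57BL/6J and CAST, at 10 days of age. There was 1 group with 2 biological replicates, with no treatment and no second genotype. Each sample is annotated as coming from 3 males, pooled or not is not stated, and both name the same donor, so the spread between the libraries may be technical. The deposited lists carry no allele information, so the parental copy behind a signal cannot be measured here, and an open site can come from one copy or from both.

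Genomic imprinting marks the maternal and paternal copies of a gene with different DNA methylation laid down in the egg or the sperm, and the mark persists in the cells of the offspring. Differentially methylated regions (DMRs) set in the germ line control whole clusters; many are promoters, active on the copy that is not methylated. In brain many imprinted genes act in growth, feeding, maternal behaviour and synaptic function, and loss of the paternal or maternal copies of the Snrpn to Ube3a region is known in humans as Prader-Willi and Angelman syndrome.

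The main lists contained 39608 peaks for replicate 1 and 45915 for replicate 2, which by the step size of its densities was sequenced 1.64 times as deeply. Throughout, a pair of values gives replicate 1 and then replicate 2. The strength of a peak is its cleavage density, a depth-normalised signal of the authors, and its percentile is the percent of peaks in the same list with a lower density. A promoter is the DNA within 1 kb of any annotated transcription start site (TSS) of a gene, a span runs from 10 kb upstream of a gene to its end, and a shared peak overlaps a peak of the other library by at least 1 bp. As a check of the tissue, promoters of 7 of 10 cortical neuron genes carried a peak in each library, with Camk2a and Neurod2 among them and Tbr1, Neurod6 and Slc17a7 not, as did 3 of 5 interneuron and 4 of 7 glial genes, beside 55.1% of all protein-coding genes. The interneuron and glial counts are near that background share. Of 10 genes of other tissues and body regions, such as Alb and Hoxa5, 0 did. In bulk tissue a site open in fewer cells and a site less open per cell cannot be told apart. With 1 group no test between conditions could be made, and the counts that follow describe these libraries beside the same counts over all genes.

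A promoter peak in both libraries was found at 33 of the 48 imprinted genes, and at 9 of 30 further imprinted genes on a second list. Among the protein-coding ones it was 29 of 41 (70.7%), beside 55.1% of the 21938 protein-coding genes of the genome. Among the noncoding ones it was 4 of 7 (57.1%), beside 20.1% of 10155 long noncoding RNA genes, and these were Meg3, Mirg, Kcnq1ot1 and Peg13. The noncoding members have a median of 7 TSSs and all long noncoding RNA genes 1, and Mirg counts only through its last start group. The protein-coding imprinted genes are annotated with more starts, a median of 5 TSSs for protein-coding members and 3 for all protein-coding genes, which gives a peak more chances to count. Within classes of TSS number the counts were 2 of 5 with 1 TSS (24.9% of all such genes), 10 of 13 with 2 to 4 TSSs (47.9%) and 17 of 23 with 5 or more (82.4%). The share was above the background at genes with 1 TSS and with 2 to 4, and below it at genes with 5 or more. These classes hold 5, 13 and 23 members, so a few genes set each difference, and no difference was tested.

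Other measures of accessibility gave like counts. Promoter hotspots, the wider domains of raised cleavage, were present in both libraries at 32 of 41 protein-coding members, beside 63.4% of all protein-coding genes, and at 5 of 7 noncoding members, beside 29.4%. Footprints, short protected stretches inside open DNA, lay in the promoters of 31 of 41 (59.6% of all) and 5 of 7 (24.1%). A shared peak anywhere in the span was found at 35 of 41 protein-coding members, beside 64.1%, and at 5 of 7 noncoding members, beside 37.5%. The members' spans are longer, which gives a peak more chances to count. The median was 49.2 kb for protein-coding members and 27.4 kb for all protein-coding genes. It was 40.7 kb for noncoding members and 16.1 kb for all long noncoding RNA genes. The hotspot and footprint shares are not matched for TSS number. The promoter peaks themselves were not among the strongest. The strongest promoter peak of a protein-coding member had a median percentile of 70.7 and 74.3 (29 and 30 genes with one), against 83.3 and 85.1 for all protein-coding genes with a promoter peak.

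**Figure D1:**
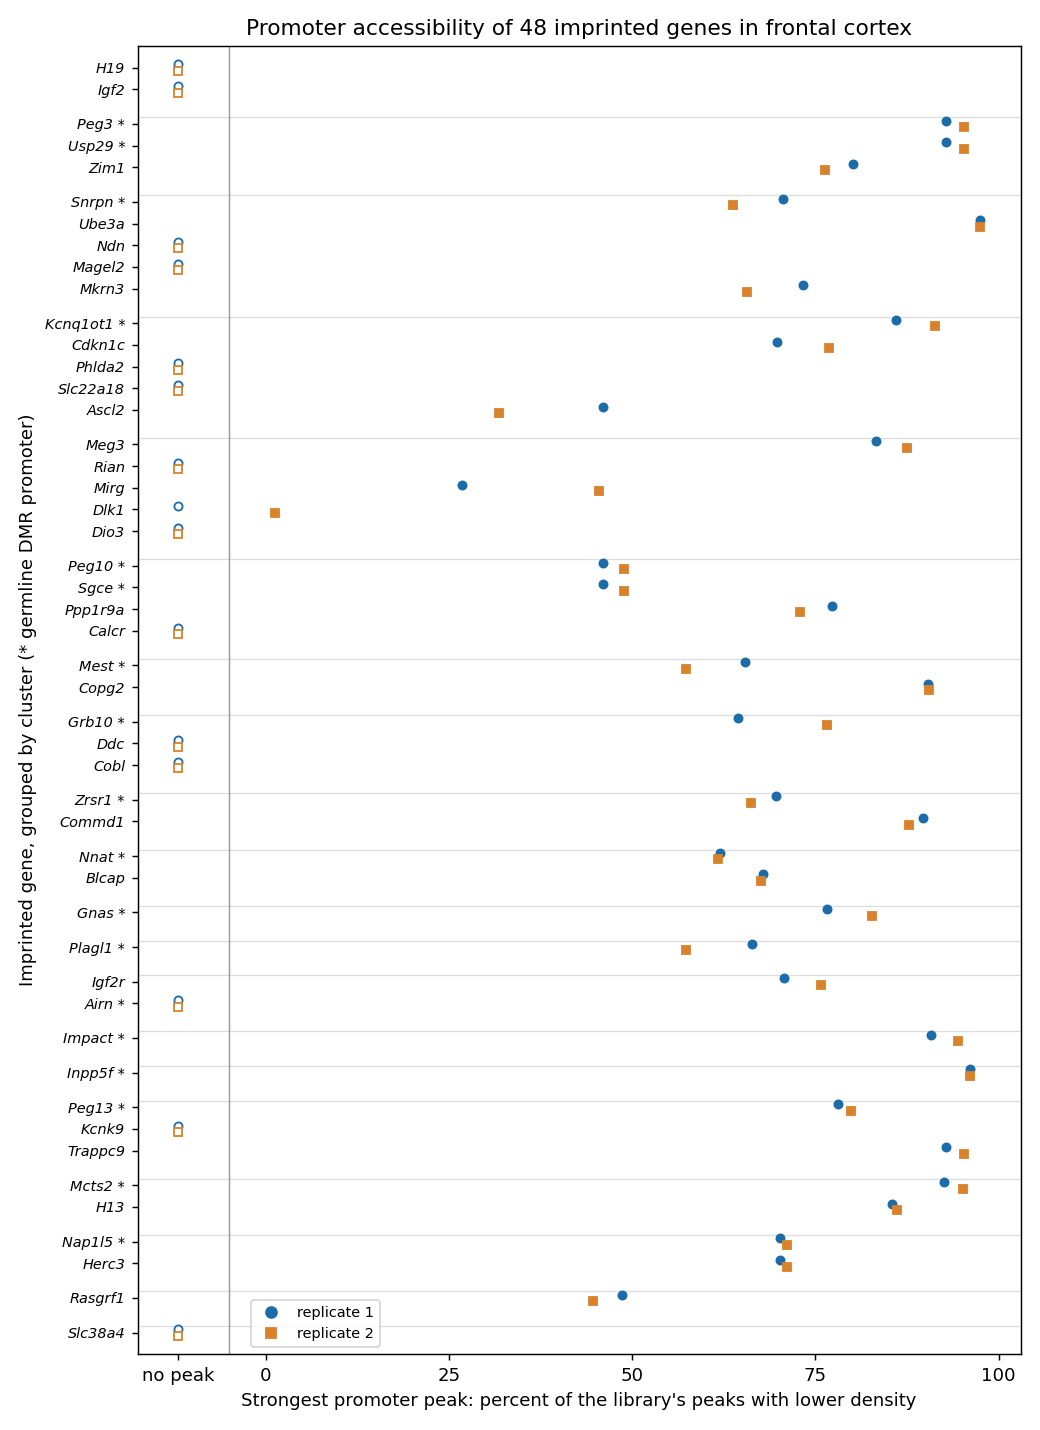
Percentile of the strongest promoter peak (horizontal axis, percent of the peaks of the library with a lower density) for each of 48 imprinted genes (vertical axis, grouped by cluster), with circles for replicate 1 and squares for replicate 2; open symbols at the left mark no promoter peak. At 33 genes both libraries have a peak, lowest at Mirg in replicate 1 (26.7) and at Ascl2 in replicate 2 (31.8) and highest at Ube3a in both (97.4 and 97.5), and at Dlk1 replicate 2 alone has one, at 1.27.

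Germline DMR promoters were open almost throughout. Of the 18 members whose promoter is a germline DMR in textbook accounts, 17 (94.4%) had a promoter peak in both libraries, and all 18 had a promoter hotspot and a promoter footprint in both. Of the other 30 members 16 (53.3%) had a promoter peak in both, a share near the 55.1% of all protein-coding genes. The DMR members have a median of 7 TSSs, the others 5 and all protein-coding genes 3, so these shares are not matched for TSS number. Of all protein-coding genes with 5 or more TSSs, 82.4% had a promoter peak in both. The list of DMR promoters was chosen with earlier results of these data known. Any start of a gene counts, so a peak need not lie on the DMR itself. Since Peg3 and Usp29, and Peg10 and Sgce, are divergent pairs that share their peaks, the 17 stand for 15 separate promoters. The remaining one was Airn, the antisense RNA that silences Igf2r on the paternal copy, with 0 main peaks and promoter hotspots numbering 2 and 1; the looser deposited list held 2 and 1 peaks there. By the copy usually expressed, 16 of 23 paternally, 11 of 17 maternally and 6 of 8 isoform or tissue dependent genes had a promoter peak in both. Their median numbers of TSSs are 3, 5 and 9.5, so these shares are not matched for TSS number either.

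**Figure D2:**
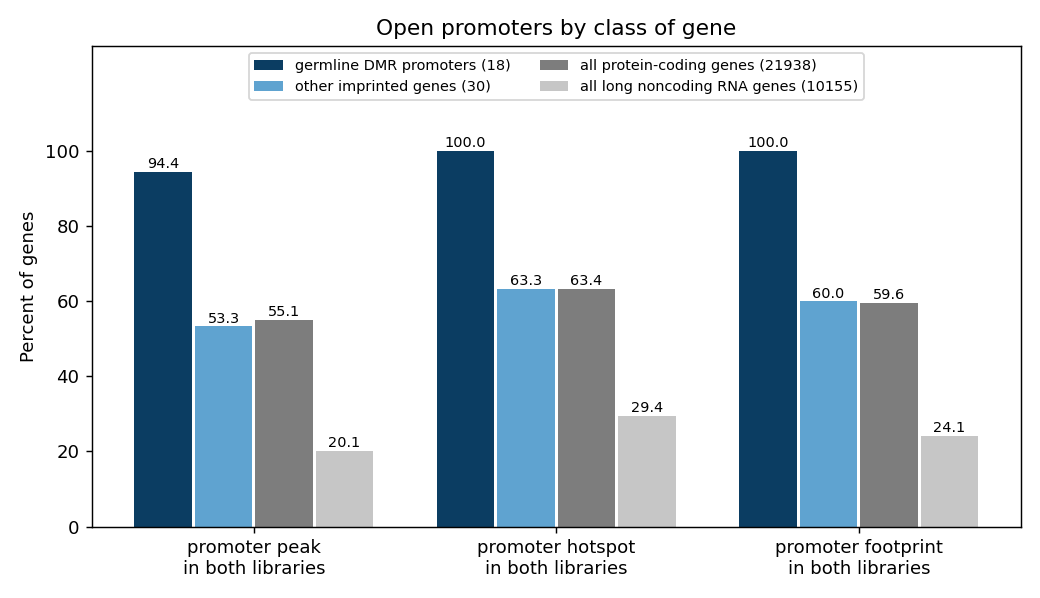
Percent of genes (vertical axis) with a promoter peak, hotspot or footprint in both libraries (horizontal axis) for germline DMR promoters, other imprinted genes, all protein-coding genes and all long noncoding RNA genes, as bars with the number of genes in the legend. The DMR promoters stand at 94.4%, 100% and 100%, and the other imprinted genes at 53.3%, 63.3% and 60.0%, close to all protein-coding genes. The classes are not matched for number of TSSs.

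Among the members with a DMR promoter, the density of the strongest promoter peak ranged widely. Inpp5f, which encodes an inositol phosphatase, was highest with 9.81 in replicate 1 and 6.26 in replicate 2. That peak lies at its upstream start, which is biallelic in textbook accounts, so the value is not that of a DMR. The peak at its internal starts is given below. Next among these members came Peg3, a paternally expressed zinc finger gene, and its divergent partner Usp29, with 7.36 and 5.74. Mcts2, a paternally expressed retrogene inside H13, followed with 7.23 and 5.62. Peg10 and Sgce were lowest with 1.38 and 1.00. These 4 levels kept the same order in both libraries, and the values lay at percentiles 96.1 and 96.1, 92.8 and 95.3, 92.5 and 95.1, and 46.0 and 48.9. At Peg10, a gene derived from a retrotransposon and needed in placenta, the low promoter density sat in a broad open stretch: 89.0% and 87.5% of promoter bases had an FDR under 0.05, the highest share among the 48 genes, and the strongest peak lay in the intron at chr6:4749181-4749360 with 6.86 and 4.39. That share depends on how much promoter is annotated. Sgce, with the same promoter peaks and 3 start groups, had 28.4% and 28.1%.

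ZFP57, a zinc finger protein that maintains imprints, binds the letters TGCCGC when their CpG is methylated, as on the silent copy of a germline DMR. Matches on either strand were counted in the 300 bp at the midpoint of each replicate 1 peak. At germline DMR promoters 8 of 36 peaks (22.2%) held 3 or more matches, and 0.747% of all 20620 promoter peaks did. Over the 5968 promoter peaks with a CpG ratio between 0.536 and 0.775, the span between the quartiles of the DMR peaks, the share was 0.653%. The 22.2% was not limited to that range. Peaks with 3 or more matches at Mcts2 (ratio 0.981) and Grb10 lie above it, so the shares are not matched for CpG. At least 1 match was found in 44.4% of the DMR peaks, 30.8% of the 26 promoter peaks of other members and 23.7% of all promoter peaks. Neighbouring peaks share sequence, and some of these peaks are nested, so promoters were counted too: 6 of 15 separate DMR promoters held a peak with 3 or more matches, at Peg3, Snrpn, Grb10, Peg13, Mcts2 and Nap1l5, and 2 of 16 other promoters, Ascl2 and the downstream Herc3 start, whose peak is the Nap1l5 one. Footprints overlapped 10 of 38 matches in DMR peaks (26.3%) and 28.0% of 7682 matches in all peaks. These are letters in open DNA, and binding was not measured.

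**Figure D3:**
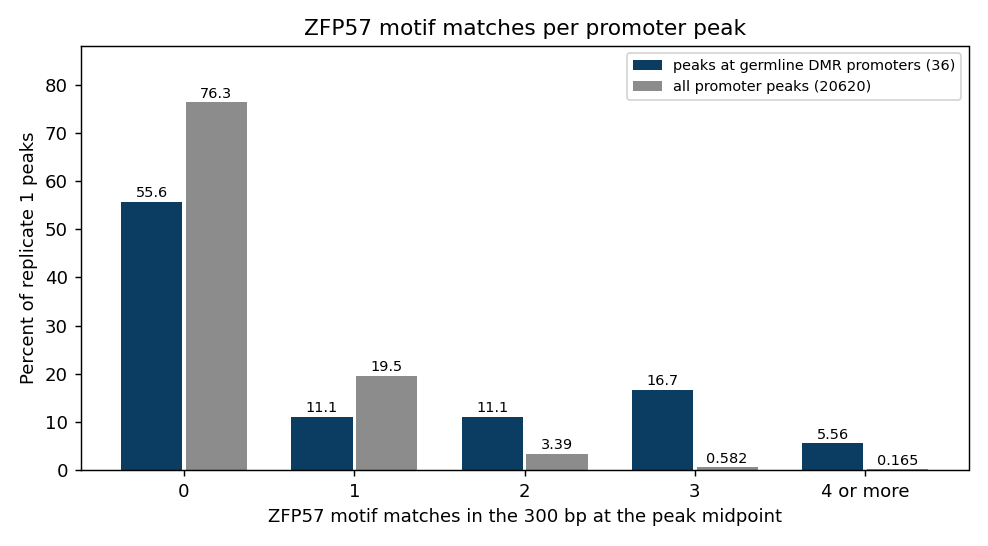
Percent of replicate 1 promoter peaks (vertical axis) by the number of ZFP57 motif matches in 300 bp (horizontal axis) for 36 peaks at germline DMR promoters and 20620 promoter peaks of all genes, as bars. Peaks with 3 matches make up 16.7% and 0.582%, and those with 4 or more 5.56% and 0.165%.

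The replicate 1 peaks at these promoters show how the matches are placed, and are given from the NCBI RefSeq sequence of GRCm38.p6 (mm10), plus strand, with capitals for the motif matches. At Peg3 they are TGCCGC and the letters GCCATCTT of the factor YY1, which is known to bind the Peg3 region. In the others they are TGCCGC or its reverse complement. The Peg3 and Snrpn peaks hold 2 matches each within their own length; the third of Peg3 lies in the flank of the 300 bp window, and the Snrpn peaks with 3 lie downstream.
Peg3, chr7:6729461-6729700: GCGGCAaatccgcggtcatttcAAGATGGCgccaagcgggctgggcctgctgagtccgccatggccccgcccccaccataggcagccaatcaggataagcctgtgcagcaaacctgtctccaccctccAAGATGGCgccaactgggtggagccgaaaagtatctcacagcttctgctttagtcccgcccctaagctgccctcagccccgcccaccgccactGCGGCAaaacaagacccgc
Mcts2, chr2:152686801-152687100: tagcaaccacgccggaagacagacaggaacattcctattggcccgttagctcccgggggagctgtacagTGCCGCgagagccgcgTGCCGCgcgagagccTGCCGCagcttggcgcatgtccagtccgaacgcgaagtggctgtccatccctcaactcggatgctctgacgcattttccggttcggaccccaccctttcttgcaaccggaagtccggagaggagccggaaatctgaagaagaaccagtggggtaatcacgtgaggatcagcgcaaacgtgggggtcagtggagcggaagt
Grb10, chr11:12026101-12026340: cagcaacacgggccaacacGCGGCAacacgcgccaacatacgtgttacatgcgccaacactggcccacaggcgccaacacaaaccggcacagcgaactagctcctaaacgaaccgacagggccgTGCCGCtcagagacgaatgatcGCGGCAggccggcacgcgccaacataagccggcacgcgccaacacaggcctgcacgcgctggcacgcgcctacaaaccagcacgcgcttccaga
Peg13, chr15:72809921-72810140: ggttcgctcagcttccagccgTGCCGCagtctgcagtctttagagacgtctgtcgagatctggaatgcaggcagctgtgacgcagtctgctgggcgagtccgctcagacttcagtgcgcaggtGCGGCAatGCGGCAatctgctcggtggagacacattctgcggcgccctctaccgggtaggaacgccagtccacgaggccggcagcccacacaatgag
Nap1l5, chr6:58906981-58907240: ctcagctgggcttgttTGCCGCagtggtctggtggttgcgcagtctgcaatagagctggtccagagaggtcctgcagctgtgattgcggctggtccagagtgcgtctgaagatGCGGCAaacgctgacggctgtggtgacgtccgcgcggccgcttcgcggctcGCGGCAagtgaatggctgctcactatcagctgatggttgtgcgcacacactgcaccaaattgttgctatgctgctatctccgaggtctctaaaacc
Snrpn, chr7:60005061-60005260: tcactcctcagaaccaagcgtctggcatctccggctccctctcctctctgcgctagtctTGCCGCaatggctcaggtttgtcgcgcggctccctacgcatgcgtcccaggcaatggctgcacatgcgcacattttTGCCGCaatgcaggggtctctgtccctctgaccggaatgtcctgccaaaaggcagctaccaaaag
At Mcts2 the 3 matches lie close together between 152686870 and 152686906, and a footprint in each library overlapped only the match at chr2:152686901-152686906. At Peg13, a noncoding RNA inside an intron of Trappc9, all 3 matches were overlapped by a replicate 1 footprint and 1 of them also by a replicate 2 footprint. At Nap1l5 the only overlap was a replicate 2 footprint on 1 of 3 matches. In the Peg3 peak both YY1 matches were overlapped by footprints in both libraries; 2 or more YY1 matches were found in 0.107% of all promoter peaks. At Snrpn the match at chr7:60005120-60005125 was free of footprints, and the match at chr7:60005196-60005201, which covers the RefSeq start at 60005199, was overlapped in both libraries.

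The Snrpn to Ube3a cluster on chromosome 7 held the strongest promoter of the set. At GENCODE starts, its other promoters lay at or below the members' median density of 2.63 and 1.83, or had no main peak. The peak on the RefSeq start of Ndn, given below, lay above that median in replicate 1. Ube3a, the ubiquitin ligase gene lost in Angelman syndrome, had the strongest promoter peak of all 48 genes at chr7:59228541-59228840, with a density of 11.4 and 7.50. Snrpn, which encodes a splicing protein, had 2.40 and 1.32 at its downstream start, chr7:60005061-60005260, and no main peak at its upstream annotated start at 60140219. RefSeq lists 2 further upstream Snrpn starts far from GENCODE ones. The start at 60450177 had a weak peak in each library (0.336 and 0.270, percentiles 0.669 and 2.49), and the start at 60047978 had 0.866 and 0.922. Mkrn3, a ring finger gene whose loss is known in early puberty in humans, had 2.63 and 1.37. Ndn, a growth suppressor gene of neurons, counted as lacking a promoter peak because its GENCODE start lies 1708 bp upstream of the RefSeq start at 62348277; a shared peak with 2.84 and 1.13 lay on that RefSeq start, at chr7:62348181-62348380. Magel2, a gene of ubiquitin-dependent trafficking, had no peak, yet 22.3% and 30.9% of its promoter bases had an FDR under 0.05, with 3 footprints in each library and hotspots numbering 1 and 2.

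Several genes with alternative promoters were open at some of them. The 41 protein-coding members have 135 groups of TSSs (starts within 500 bp of each other), of which 44 (32.6%) had a peak in both libraries, beside 28.2% of the groups of all protein-coding genes. A peak counts for each group within 1 kb of it, so 1 peak can count for several groups. Over all 48 members, 35 had more than 1 group: 22 were open at some, 3 at all and 10 at none. The same split was not made over all genes, so it cannot be called particular to these. Grb10, which encodes an adaptor that restrains insulin signalling and is known to be expressed from the paternal copy in neurons through internal promoters, had no peak at its upstream starts at 12038683 and 12037401 of chromosome 11, with 1 hotspot in replicate 1 and 0 in replicate 2 at the second of them. It was open at the internal starts between 12026324 and 12026732, with a density of 2.01 and 1.86. The internal start at 12027971 counted only through the edge of the same peak, chr11:12026741-12027000 in replicate 1. Inpp5f was open at its upstream start with 9.81 and 6.26. Its internal starts at 128687546 and 128688489 are the promoters of an imprinted retrogene-derived transcript in textbook accounts. Both counted as open through 1 peak, which covers the start at 128688489, with 3.39 and 1.96. The 4 groups between the upstream and internal starts had no peak. Plagl1, a zinc finger gene of growth control, was open at 1 of 4 groups with 2.12 and 1.16. Mest, a paternally expressed hydrolase gene, was open at 1 of 6 groups, where the libraries differed: the peak on the start itself, at chr6:30737897-30738142 with 2.07, was found in replicate 1 alone, and the peak about 1 kb upstream, with 1.62 and 1.16, in both.

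Gnas, which encodes the stimulatory G protein alpha subunit and has both maternally and paternally expressed transcripts, was open at 3 of 7 start groups. These were the group at 174327570 to 174328023 of chromosome 2 with 2.17 and 1.51, the group at 174330006 to 174330287 with 3.00 and 1.75, and the group at 174344650 with 2.34 and 2.40. The 3 most upstream groups, from 174284320 to 174297859, had no peak, though each had 1 hotspot in each library. The strongest peak of the gene, with 4.34 and 3.33, lay in an intron at chr2:174295361-174295620, within 1 kb of a start of the antisense gene Nespas. Impact, a regulator of the stress response of translation, was open at 3 of 5 groups with a highest density of 6.40 and 5.28. Blcap was open at its middle starts with 2.21 and 1.44, and through the start it shares with Nnat, a paternally expressed proteolipid gene inside a Blcap intron, with 1.90 and 1.26.

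**Figure D4:**
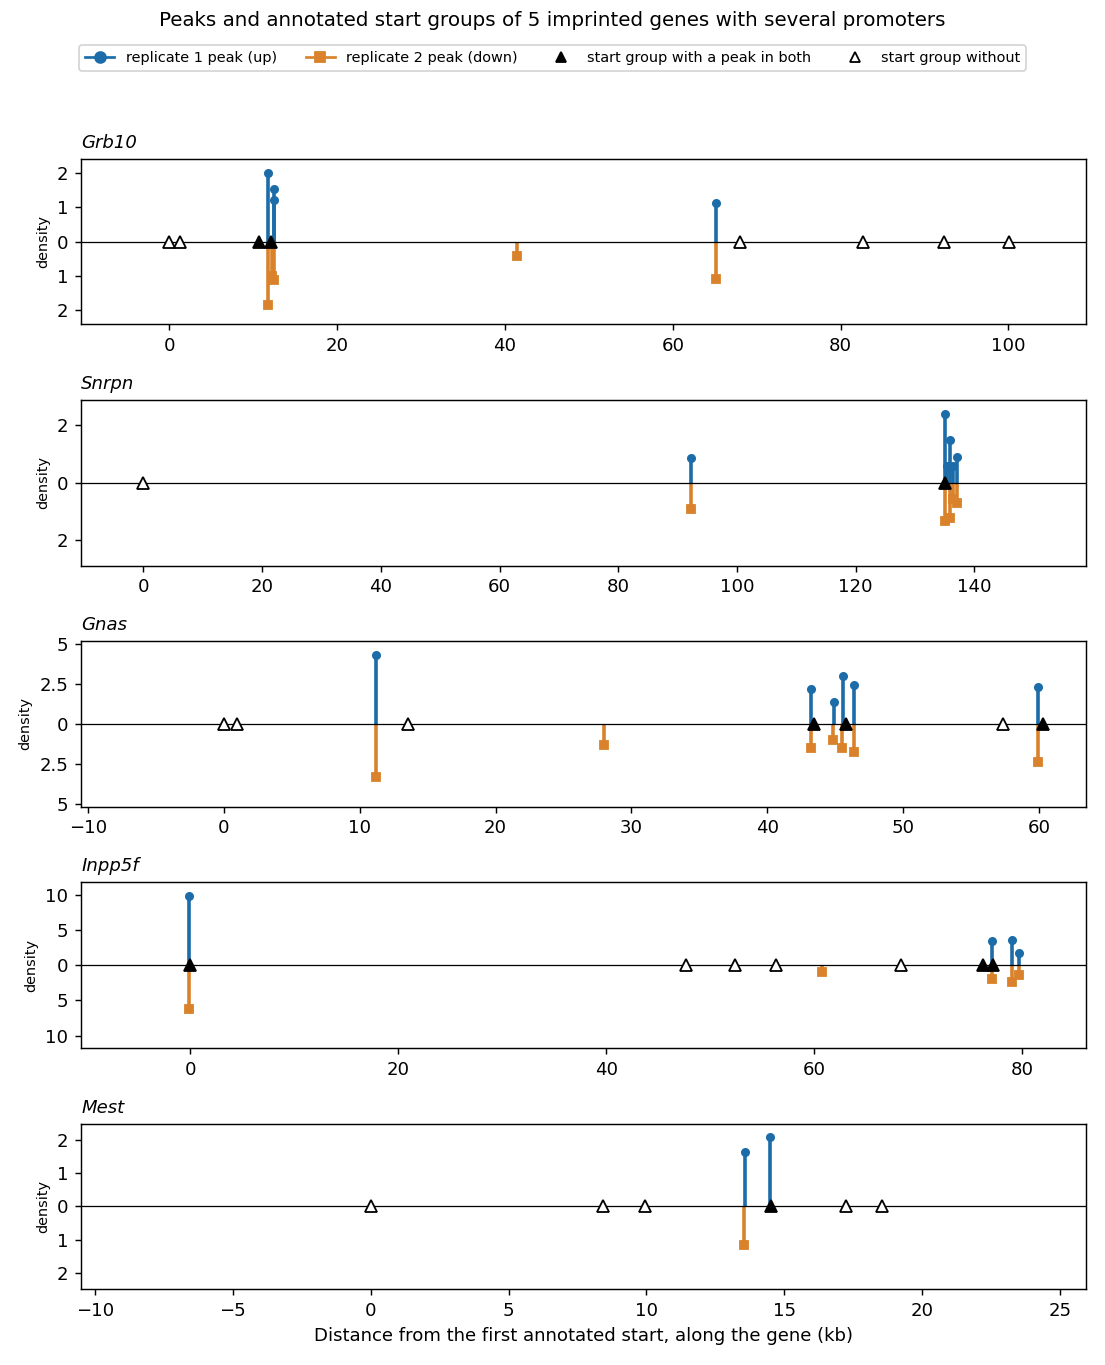
Peak density (vertical axes, replicate 1 upward and replicate 2 downward) against the distance from the first annotated start along the gene in kb (horizontal axes) for Grb10, Snrpn, Gnas, Inpp5f and Mest; triangles mark groups of annotated starts, filled where both libraries have a promoter peak. Grb10 is open at 2 of 8 groups, Snrpn at 1 of 2, Gnas at 3 of 7, Inpp5f at 3 of 7 and Mest at 1 of 6. At Grb10 and at Inpp5f, 2 of the open groups share a peak.

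Of the 7 noncoding RNAs, Kcnq1ot1, Peg13, Meg3 and Mirg had a promoter peak in both libraries, and Airn, H19 and Rian did not. Kcnq1ot1, the paternal RNA that silences its neighbours in cis, had a peak on its start at chr7:143296501-143296740 with 4.74 and 4.00. Its protein-coding neighbours were open at Cdkn1c, a cell cycle inhibitor gene, with 2.34 and 1.88, and at Ascl2, a transcription factor gene of trophoblast, with 1.38 and 0.764. Phlda2 and Slc22a18 had no promoter peak, and each had 1 shared peak in its span. Peg13 had 3.19 and 2.11. Meg3, a maternally expressed RNA, was open at both of its upstream start groups, with 1.69 and 1.21 at the first and 4.10 and 3.08 at chr12:109542941-109543160 near the second. Rian, which runs downstream of Meg3, had no peak in its span, and Mirg had 0.996 and 0.948 at the last of its 7 start groups, from 109747903 to 109747964, with no peak at the other 6.

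The Meg3 peak and the peak of Zrsr1, a paternally expressed retrogene inside Commd1, each held a match to the NRF1 letters CGCATGCGC, as did the peaks at Nnat and at the RefSeq start of Ndn. NRF1 is a transcription factor of metabolic genes whose binding is known to be blocked by DNA methylation. All 4 NRF1 matches in replicate 1 peaks of the spans were overlapped by a footprint of that library, against 86.5% of 706 matches in all peaks, so footprints at this motif were common throughout. The matches at Meg3, Zrsr1 and Ndn were overlapped in both libraries, and that at Nnat in replicate 1 only. The peaks at Meg3 and Zrsr1 are shown on the plus strand with the NRF1 match in capitals.
Meg3, chr12:109542941-109543160: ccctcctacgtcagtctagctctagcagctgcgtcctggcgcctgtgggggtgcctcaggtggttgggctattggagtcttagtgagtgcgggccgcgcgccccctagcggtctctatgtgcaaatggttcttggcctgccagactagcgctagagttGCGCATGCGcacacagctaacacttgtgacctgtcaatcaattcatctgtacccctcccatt
Zrsr1, chr11:22972841-22973080: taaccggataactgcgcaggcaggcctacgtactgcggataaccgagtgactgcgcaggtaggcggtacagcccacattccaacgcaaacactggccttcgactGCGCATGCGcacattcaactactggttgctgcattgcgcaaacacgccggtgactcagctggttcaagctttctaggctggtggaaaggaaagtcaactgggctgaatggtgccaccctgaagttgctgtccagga

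Promoter peaks in both libraries were missing at 15 of 48 genes: H19, Igf2, Ndn, Magel2, Phlda2, Slc22a18, Rian, Dlk1, Dio3, Calcr, Ddc, Cobl, Airn, Kcnk9 and Slc38a4. Of these, Igf2, Magel2, Rian and Calcr had no main peak in their span in either library, and H19, Dlk1, Dio3 and Slc38a4 had none in replicate 1. At Igf2, the fetal growth factor gene, promoter bases with an FDR under 0.05 were at 0% in both libraries, and promoter hotspots and footprints were at 0. Calcr, the calcitonin receptor gene, and Rian also had 0 of all of these at the promoter. Ddc, which encodes the decarboxylase of dopamine and serotonin synthesis, had 1 shared intronic peak with 1.14 and 1.34. Cobl, an actin regulator gene in the same cluster, had 5 shared intronic peaks and no promoter peak, with promoter hotspots numbering 3 and 2. Kcnk9, a maternally expressed potassium channel gene of brain, had 4 shared peaks in its span; the nearest, at chr15:72547601-72547880 with 1.38 and 1.19, lay 1401 bp from the start and so outside the promoter window. Inside that window the libraries differed: 28.7% of bases had an FDR under 0.05 in replicate 1 and 0% in replicate 2, with 4 and 0 footprints and 4 and 0 peaks in the looser list.

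Dlk1, a paternally expressed Notch-like ligand gene, differed between the libraries: its span held 0 peaks in replicate 1 and 7 in replicate 2. Of these 7, 6 lay inside the gene with densities from 0.0922 to 0.184, no higher than percentile 1.27 of the replicate 2 list and outside any hotspot. The promoter peak of Dlk1 in replicate 2 is 1 of these 6. The remaining peak lay upstream, at 0.968.

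At H19, the maternal RNA next to Igf2, the paternally methylated control region lies a few kb upstream and binds the insulator protein CTCF on the maternal copy. The window from 2 to 4 kb upstream, chr7:142580143-142582143, held 0 peaks in replicate 1 and 1 in replicate 2, at 0.685 and percentile 25.3. Both libraries had 1 hotspot there, with a highest −log10 FDR of 1.74 and 3.24, at positions that overlap the peak. The looser list had 1 and 3 peaks in the window and both read-derived lists had 0 and 1. The window holds 5 matches to the CTCF core GGNGGCAG and 5 to TGCCGC. In 300 bp windows the core was found in 18.5% of all peaks, in 26.9% of the promoter peaks of members without a DMR promoter and in 2.78% of those at DMR promoters. The replicate 2 peak, shown on the plus strand with matches to both motifs in capitals, was chosen for its position after its values were seen, since no shared peak lies in this window.
H19 upstream, chr7:142581746-142581926: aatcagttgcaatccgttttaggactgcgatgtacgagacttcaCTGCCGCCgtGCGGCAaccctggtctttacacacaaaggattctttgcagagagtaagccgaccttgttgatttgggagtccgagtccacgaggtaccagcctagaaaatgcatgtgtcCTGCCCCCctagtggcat
The CTCF core at chr7:142581790-142581797 overlaps a TGCCGC match and a replicate 2 footprint, and the other core, at 142581909 to 142581916, had no footprint. A second TGCCGC match, at 142581800 to 142581805, was overlapped by a footprint in both libraries. This match lies next to the core at 142581790 to 142581797, and which protein left the footprint was not tested. The other 2 paternally methylated control regions gave less. From 10 to 20 kb upstream of Meg3 there were 0 peaks, hotspots and footprints in both libraries, and from 25 to 35 kb upstream of Rasgrf1 only 1 replicate 2 hotspot, with a highest −log10 FDR of 1.30. Rasgrf1 itself, a guanine exchange factor gene of neurons, had a promoter peak with 1.44 and 0.935.

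Taken over whole spans, peaks at imprinted genes were found again in the other library at 84.6% (99 of 117 replicate 1 peaks, 95% Wilson interval 77.0 to 90.0) and 77.2% (98 of 127 replicate 2 peaks, 69.1 to 83.6), against 80.1% and 69.6% of all peaks. The replicate 1 share of all peaks lies within the members' interval and the replicate 2 share at its lower edge, and the intervals cover counting error only. Promoter peaks numbered 62 and 57, of which 53 and 53 were shared, intronic ones 35 and 51 (33 and 33 shared), exonic ones 5 and 7 (5 and 4) and upstream ones 15 and 12 (8 and 8). A median of 0.338 shared peaks per 10 kb of span was found over the protein-coding members, against 0.209 over all protein-coding genes. At least 1 shared peak was present in 18 of 20 clusters, and in neither the H19-Igf2 nor the Slc38a4 cluster. The lengths examined ran from 31.2 to 537 kb, and no background share was made for regions of such lengths. Of single protein-coding genes, with a median span of 27.4 kb, 64.1% held a shared peak.

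**Figure D5:**
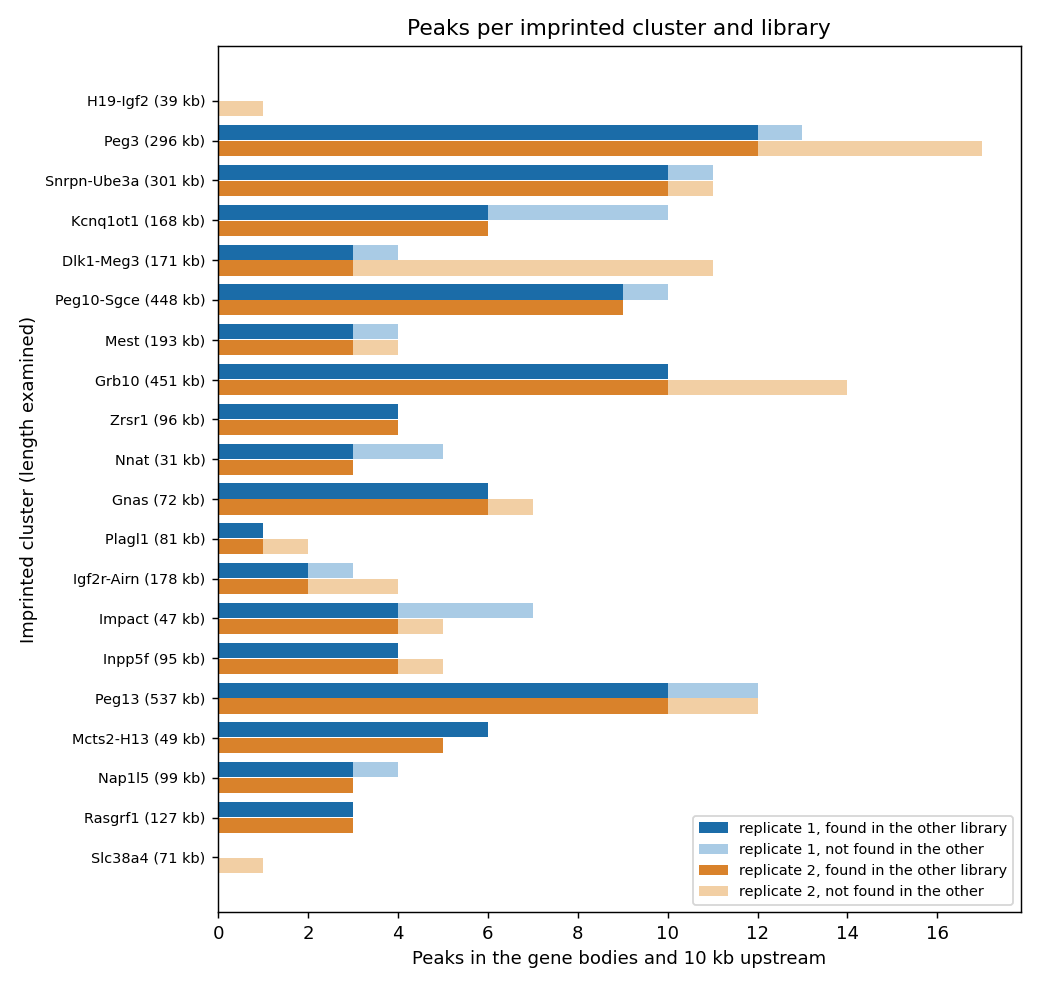
Number of peaks (horizontal axis) in the gene bodies and 10 kb upstream for each of 20 imprinted clusters (vertical axis, length examined in kb), with dark bars for peaks found in the other library and light bars for the rest, replicate 1 above replicate 2. The Peg3 cluster has most, 13 and 17, and the Dlk1-Meg3 cluster shows the widest gap, 4 and 11.

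The strongest site of the whole set was no promoter of a member. It lay 6437 bp upstream of Trappc9, a gene of vesicle trafficking, at chr15:73067481-73067800 with a density of 19.1 and 13.4, above 99.8% of the peaks in each library and with 6 and 7 footprints. The Trappc9 promoter peak had 7.38 and 5.71. At Commd1 an upstream peak with 5.01 and 2.69 lay within 1 kb of a start of its neighbour Cct4, and so may not belong to Commd1. The Commd1 promoter had 5.97 and 3.11. Of 46 shared replicate 1 peaks outside the members' promoters, 4 lay within 1 kb of a start of another gene. In the Peg3 cluster the intron of Peg3 carried a further strong site at chr7:6728561-6728700 with 6.61 and 5.78. Usp29, a deubiquitinase gene with a span of 247 kb, held weaker intronic peaks, with densities between 0.599 and 1.87. Copg2, a coat protein gene that runs into Mest, had 6.21 and 3.76 at its promoter, H13, a signal peptide peptidase gene, 4.59 and 2.85, Zim1, a maternally expressed zinc finger gene, 3.50 and 1.84, Ppp1r9a, a gene of the synaptic actin scaffold, 3.08 and 1.66, Igf2r, a receptor that clears IGF2, 2.42 and 1.81, and Herc3, a ubiquitin ligase gene, 2.37 and 1.57 through the peak it shares with Nap1l5. In each of these pairs replicate 1 was higher, as it was in the median density of all peaks, 1.47 and 1.01. The difference is therefore not particular to these genes.

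The 9 of 30 genes with such a promoter peak on the second list of imprinted genes, coding and noncoding, included Nespas, Peg12, Snurf and Asb4, against 55.1% of all protein-coding genes. The Nespas peak is the one described above in the Gnas intron, so the 9 are not all sites apart from those of the members. Among 14 genes that establish or keep imprints, 11 had one, including Trim28, Zfp445, Ctcf, Dnmt1 and Uhrf1. The exceptions were Dppa3 and Dnmt3l, genes of the germ line and early embryo with no peak in their spans, and Zfp57, with 1 promoter peak in replicate 1 and 0 in replicate 2.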

How the data were processed

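DNase-seq lists of 2 frontal cortex libraries were used as deposited, per library. Peaks carry a cleavage density, a depth-normalised signal deposited by the authors. Hotspots carry the highest −log10 FDR, per the file headers. Footprint lists carry 0.01 throughout as the deposited p-value, a threshold. Per-base p-value tracks deposited by the authors hold FDR for bases under 0.05. All peaks of the main lists contain a base with FDR under 0.001; peaks made in a separate run from reads are called read-derived. Which aligner and callers made them is not stated in the sources used here. Total depth is unknown; relative depth came from the ratio of the libraries' density steps, since every density lay within 0.05 of a step from a whole multiple. Overlapping peaks within a list (10 and 4 of those in the spans) were counted separately.

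Files use mm10. GENCODE vM21 and GRCm38.p6 supplied genes and sequence, and RefSeq promoters (250 bases before to 50 after a start) further starts for 40 of 48 members; they hold TGCCGC in 23.3% of 60 members' promoters and 11.6% of all 32851. Matches of 1 motif that overlap count once; the motif TGACGTCA of CRE was searched too and lay in 3 peaks of the spans. Mapping bias towards the reference strain was not tested.

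Counts were made with Python 3.11.15, numpy 2.4.6, pandas 2.3.3, pysam 0.24.0, samtools 1.23.1 and scipy 1.17.1, plots with matplotlib 3.10.9, and the overlap code was tested on simulated data. All members were named, with each cluster's strongest shared peak. Members, lists and windows were chosen with earlier results of these data known. The fixed rule for sequences asked for a shared H19 peak, which does not exist. Alternatives were other peak lists, overlaps, windows and single libraries.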

Additional observations from a re-analysis of the deposited data

How the results depend on the processing

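Of 74 alternatives over 10 results, 67 left a count or median within 1.5 times, or a share within its interval, and 7 moved it. Counts of members cannot pass 48, nor DMR promoters 18, so no looser setting could raise these main counts by 1.5 times. They could be called moved only by falling, so the tally says little about looser settings. Imprinted genes with promoter peaks in each library numbered 31 to 37, and 33 or 34 in a single library. With RefSeq starts added to the GENCODE ones, chosen after seeing the data, they numbered 34. Germline DMR promoters numbered 16 to 18, and 17 in each single library. The median of shared peaks per 10 kb was 0.558 in the looser list and 0.496 in the larger read-derived list, both longer, and 0.410 and 0.457 for the peaks of replicate 1 and of replicate 2 alone. A 50% reciprocal overlap gave shares found again of 70.1% and 63.8%, and lists of equal size gave 85.1% of replicate 2 peaks. Shared peaks in the control windows upstream of H19, Meg3 and Rasgrf1 numbered 1 in the looser list; single libraries gave 0 (replicate 1) and 1 (replicate 2). The reciprocal overlap gives no value for promoter counts, where peaks of the libraries need not overlap. No paired analysis was possible because there is 1 group and no test. Without known depth, a missing peak means not detected.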
